A study of Mus musculus with 41 samples.

Results

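Neutrophils were described in single-cell RNA libraries of the small intestine of mice. They were defined by raw counts of unique molecular identifiers (UMIs, one per captured transcript): at least 10 UMIs of S100a8 and S100a9 together, at least 1 UMI of Csf3r, Cxcr2 or Retnlg, and none of the macrophage genes C1qa, C1qb and C1qc, of the T cell genes Cd3d, Cd3e and Trac, or of the B cell gene Cd79a. Of 58067 cells in 27 libraries, 246 met this rule. The lamina propria gave most of them, 107 in food allergy and 9 in control libraries of one sort and 48 and 2 in another, and Peyer's patches gave 48 in food allergy and 32 in control libraries.

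Cells came from female BALB/cJ mice aged 10 weeks, from the Peyer's patches or the lamina propria of the small intestine. Controls were untreated wild-type mice, and the other group, which the labels call Food Allergy, had an inflammatory reaction provoked with ovalbumin. The lamina propria held 3 libraries of each condition from a sort labelled nonTB and 1 of each from a sort labelled IgDLow, terms the labels do not define, on 2 run dates (runs 6 and 7). Peyer's patches held 10 control and 9 food allergy libraries on 5 run dates (runs 1 to 5), and the labels do not tie libraries to separate animals: each p-value below rests on library-to-library spread alone, part of which can be technical.

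Neutrophils are short-lived granulocytes that mature in the bone marrow, circulate in blood and enter tissue along gradients of chemokines, complement fragments and lipid mediators. They make their granule proteins in sequence while they mature, primary granules first and tertiary granules last, so transcripts of early granules are lost in the mature cell. In tissue they release calprotectin, interleukin 1 and chemokines that draw in further neutrophils.

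The promoters of 3 genes are shown because they carry the results below: S100a9, which defines the cells, Retnlg, by which the members are divided below, and Cxcl2, a chemokine gene that was higher in food allergy. Sequences are from RefSeq (build GRCm38.p6), 250 bases before to 50 after the gene's start, 5′ to 3′ on the gene's strand. Capitals mark matches, on either strand, to TTGCNNAA, a core of the site bound by C/EBP factors, or to GGNNTTTCC, a shortened form of the NF-kB site; both motifs were chosen with results of these data known.

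S100a9 promoter, chr3:90695672-90695971, minus strand: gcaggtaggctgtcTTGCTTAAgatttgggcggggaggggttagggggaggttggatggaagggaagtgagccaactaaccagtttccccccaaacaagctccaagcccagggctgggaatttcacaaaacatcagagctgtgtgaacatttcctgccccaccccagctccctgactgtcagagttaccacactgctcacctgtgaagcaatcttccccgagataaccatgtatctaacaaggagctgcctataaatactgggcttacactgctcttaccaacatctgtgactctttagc
Retnlg promoter, chr16:48872358-48872657, plus strand: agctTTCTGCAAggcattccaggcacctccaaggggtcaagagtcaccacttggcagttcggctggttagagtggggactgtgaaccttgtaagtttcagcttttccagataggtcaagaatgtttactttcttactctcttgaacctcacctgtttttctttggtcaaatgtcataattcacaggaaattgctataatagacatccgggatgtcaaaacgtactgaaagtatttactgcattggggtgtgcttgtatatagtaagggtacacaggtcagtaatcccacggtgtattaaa
Cxcl2 promoter, chr5:90903649-90903948, plus strand: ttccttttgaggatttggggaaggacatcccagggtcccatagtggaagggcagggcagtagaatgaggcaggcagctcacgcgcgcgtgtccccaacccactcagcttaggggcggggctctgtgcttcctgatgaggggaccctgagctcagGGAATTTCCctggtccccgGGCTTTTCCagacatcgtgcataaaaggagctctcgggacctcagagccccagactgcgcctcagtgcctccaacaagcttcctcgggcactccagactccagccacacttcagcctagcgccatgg

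The window of Cxcl2 held 2 matches to GGNNTTTCC, which began 96 and 77 bases before the start and did not overlap, whereas 5.82% of all 32851 windows of this length held one. S100a9 and Retnlg each held 1 match to TTGCNNAA, which 10.8% of all windows held. Among the 20 genes with the highest ratio to other cells (below), 15 had an entry, and 4 of them held TTGCNNAA (Steap4, Lcn2, Retnlg and S100a9) and 2 held GGNNTTTCC (Steap4 and Mrgpra2b). Among the 11 genes outside the rule called between conditions in at least one of the 2 fits over all strata (below), 9 had an entry, 2 held TTGCNNAA (Plaur and Ptgs2) and 2 held GGNNTTTCC (Ccrl2 and Cxcl2). A match describes the letters of the window and not a bound factor.

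The members were shallow cells. Their median total was 1010 UMIs and 444.5 genes, against 3042 UMIs and 1183 genes in all other cells, and the median mitochondrial share was 0.322% against 3.29%. S100a8 and S100a9 together made up a median of 4.81% of a member's UMIs. At the edge of the rule, 21 members had 10 to 14 UMIs of both genes (median total 718 UMIs) and 11 cells that met every other criterion had 5 to 9 (median total 1088 UMIs). Il1b was detected in all 21 and in all 11, and G0s2 in 19 and 10. The rule's other criteria left out 34 cells with a UMI of C1q, CD3, Trac or Cd79a and 14 without a receptor UMI. The barcode of 1 member occurred in another library of its run, as did those of 949 cells of all libraries, and in no case were both cells members.

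A small set of deep cells stood apart. The 24 members with over 4000 UMIs, 11 of the lamina propria and 13 of Peyer's patches, held 43.4% of all UMIs of members. Those of the lamina propria were all from food allergy libraries. Without the 24, nonTB food allergy library 3 fell from 58794 to 15715 UMIs. Peyer's patch run 5 fell from 119955 to 41792 UMIs in food allergy and from 65602 to 22485 in control. The median total of the 24 was 6540.5 UMIs, against 964 in the other 222, which makes detection of a gene more likely in the 24. Siglech was detected in 91.7% of the 24 against 5.86% of the other 222, Ly6c2 in 95.8% against 13.5%, Cd74 in 91.7% against 23.0% and H2-Aa in 83.3% against 10.4%. These are known as genes of plasmacytoid dendritic cells, monocytes and antigen-presenting cells, and their part in the results was not tested. The S100a8 level of the 24 was 2218 CPM (UMIs of the gene scaled to a fixed total, so that 1000 CPM is 1 UMI in 1000) against 28937 CPM in the others. The rule asks for 10 UMIs whatever the total, so a deep cell could enter at a lower CPM and this gap is a description. Levels below are given as CPM over the summed UMIs of the 222 members with at most 4000 UMIs, a limit chosen after these values were seen, and tests are given for all members and for this subset. They fell into 100 nonTB food allergy, 9 nonTB control, 44 IgDLow food allergy, 2 IgDLow control, 40 Peyer's patch food allergy and 27 Peyer's patch control cells. Siglech, Ly6c2, Cd74 and H2-Aa, and below Mmp9, Tnf, Ncf1 and Isg15, were named after their values had been seen.

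**Figure D1:**
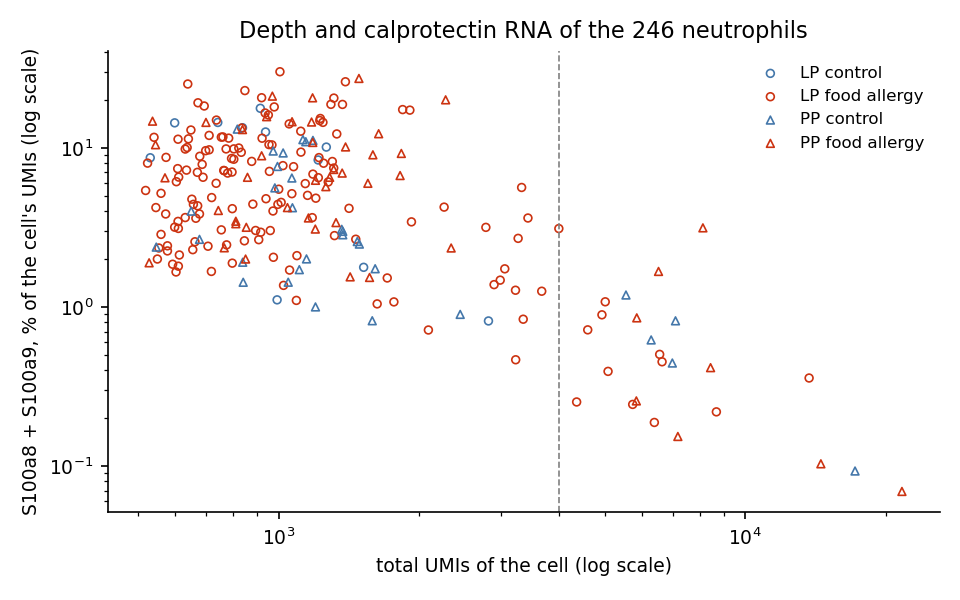
Each point is 1 of the 246 neutrophils, with its total UMIs on the x axis and the percentage of its UMIs from S100a8 and S100a9 on the y axis, both on log scales; circles are lamina propria (LP), triangles Peyer's patches (PP), blue control and red food allergy. The 24 cells right of the dashed line at 4000 UMIs had 2218 CPM of S100a8 as a group, against 28937 CPM in the 222 cells left of it. The rule asks for 10 UMIs of both genes whatever the total, so deep cells could enter at a lower percentage.

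Markers that the rule did not use fitted the name neutrophil in the 222 cells. Trem1, a receptor that amplifies inflammatory signals, was detected in 64.0% of them, Il1r2, the decoy receptor of interleukin 1, in 56.8%, Clec4d in 56.3%, Mmp9 in 48.2%, Mmp8 in 27.5%, Lcn2 in 26.1% and the formyl peptide receptor gene Fpr1 in 18.02%. In lamina propria cells gated as innate lymphoid cells (ILCs), which should lack them and had a median of 1542 UMIs against 964 in the 222 members, these 7 markers were detected in 0% to 1.56% of cells. Gated monocytes had a UMI of them in 0% to 4.48%, and macrophages in 0% to 2.37% but for Mmp9 (24.4%) and Il1r2 (27.8%). Ly6g, the classical surface marker, gave only 26 UMIs, in 6.31% of members, and was detected in none of the gated monocytes, macrophages, mast cells or ILCs. Markers of eosinophils and basophils were low: with all members, their summed levels in nonTB food allergy were 6.34 and 12.7 CPM. Eosinophil genes reached 87.9 CPM in Peyer's patch food allergy, with a UMI in 10.4% of members, and 53.8 CPM in Peyer's patch control. Basophil genes reached 53.2 CPM in IgDLow food allergy.

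In the lamina propria the neutrophil share of cells was higher in food allergy in every library. The food allergy libraries 1 to 3 held 38 of 2800, 44 of 2822 and 25 of 2374 cells, that is 1.36%, 1.56% and 1.05%. The control libraries 1 to 3 held 1 of 2285, 6 of 2516 and 2 of 2466 cells, that is 0.0438%, 0.238% and 0.0811%. The groups did not overlap: the means were 1.32% ± 0.255 (SD, n = 3) and 0.121% ± 0.103 (SD, n = 3), a difference of 1.20 percentage points and a ratio of 10.9. Without control library 2 the ratio was 21.2, since the control mean was then 0.0624%. Over cells with at least 1000 UMIs the difference was 0.496 percentage points. An exact two-sided permutation test that exchanged condition within run gave p = 0.167, the smallest value its 12 arrangements allow, so this design cannot pass 0.05. Within run 6 the difference was 1.32 percentage points with 2 libraries against 2, and within run 7 it was 0.972 with 1 against 1. The IgDLow libraries, which were not part of that test, gave 48 of 3409 cells (1.41%, exact binomial 95% interval 1.04% to 1.86%) in food allergy and 2 of 2598 (0.0770%, 0.00932% to 0.278%) in control, intervals that cover counting error only. With this pair added as a further stratum the exact p was 0.0833, again the smallest possible.

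Other gated cells of the same libraries are given beside this share. Mast cells numbered 16, 9 and 17 cells in the control libraries 1 to 3 and 279, 221 and 161 in the food allergy libraries, and monocytes numbered 122, 134 and 175 in control and 100, 101 and 60 in food allergy. Neutrophils were thus fewer than monocytes in all 6 libraries, 1 against 122, 6 against 134 and 2 against 175 in control and 38 against 100, 44 against 101 and 25 against 60 in food allergy. UMIs of the defining genes in other cells moved with the share: among all other cells, 2.24%, 4.18% and 2.00% of those in food allergy libraries and 0.306%, 0.239% and 0.771% of those in control libraries had a UMI of S100a8 or S100a9. The rule asks for 10 UMIs, and the part of such UMIs in the share was not tested.

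In Peyer's patches the share varied by run. Runs 1 to 3 held 1 of 8580, 0 of 3804 and 0 of 1125 control cells and 0 of 1987, 1 of 2635 and 1 of 3891 food allergy cells. Where no neutrophil was found, 3 counts of the library's cells gave an upper limit between 0.0916% and 0.792%. Run 4 held 6 of 2525 control cells (0.238%) and 2 of 2046 food allergy cells (0.0978%). Run 5 held most of them, 25 of 4824 control cells (0.518%) and 44 of 5380 food allergy cells (0.818%). The mean difference over runs, food allergy minus control, was 0.0423 percentage points, with p = 0.625 in an exact two-sided test that exchanged the sign per run. Without run 5 it was -0.0220 (exact p = 0.875). Runs 4 and 5 were also the runs rich in myeloid cells: gated monocytes made up 4.08% to 12.2% of cells in their libraries and at most 0.818% in those of runs 1 to 3.

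**Figure D2:**
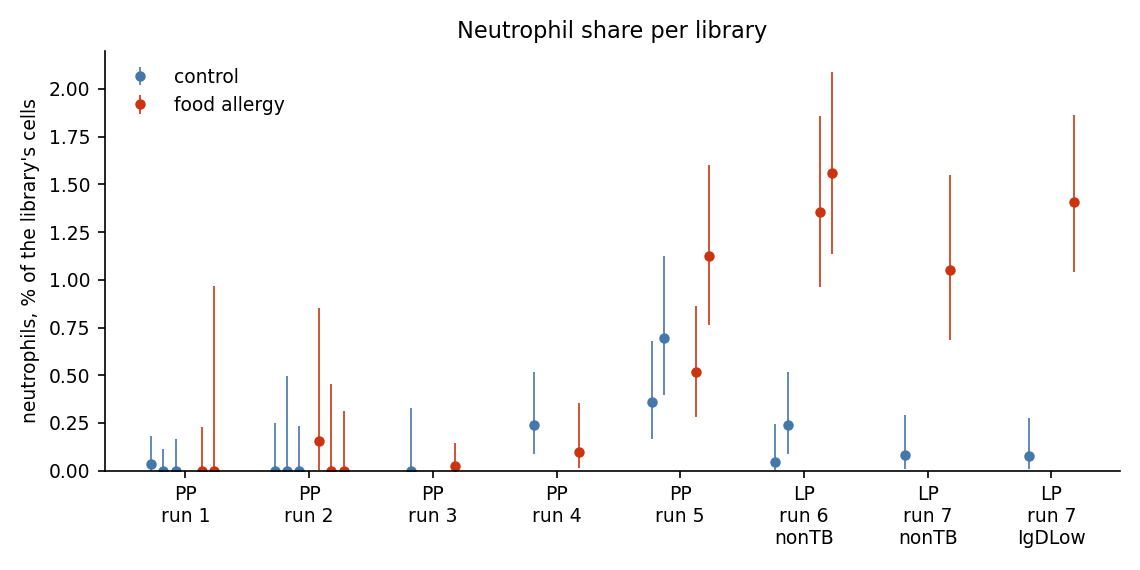
Points are libraries, with neutrophils as a percentage of the library's cells on the y axis and tissue, run and sort on the x axis (PP, Peyer's patches; LP, lamina propria); bars are exact binomial 95% intervals. All 4 lamina propria food allergy libraries lie between 1.05% and 1.56%, above the 4 control libraries at 0.0438% to 0.238%.

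By ratio to all other cells of the 6 nonTB libraries, among genes with at least 100 CPM, the 20 leading genes of the members were Steap4, Lcn2, Il1f9, Wfdc21, Mrgpra2b, Lrg1, Retnlg, S100a9, S100a8, G0s2, Gm5483, Chil1, Irg1, BC100530, Fpr1, Asprv1, Stfa2l1, Hcar2, Csf3r and Cxcr2. Since S100a8, S100a9, Retnlg, Csf3r and Cxcr2 set the rule and the others were read from the same cells, this order is a description without a test. Steap4, a metalloreductase gene, gave 18 UMIs in the 116 members and 1 in the 15147 other cells. Lcn2, which encodes the iron-binding granule protein lipocalin 2, gave 71 against 8 UMIs, and G0s2, an inhibitor of fat breakdown, 2191 against 621. Irg1 makes itaconate, and gave 164 against 67 UMIs. Gm5483, BC100530 and Stfa2l1 belong to the stefin family of protease inhibitors, whose near-identical copies may share reads, so their single values are uncertain.

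Calprotectin is the dimer of S100a8 and S100a9, which binds metal ions and makes up much of the neutrophil cytosol. S100a8 (chromosome 3, 90668978 to 90670035, plus strand) and S100a9 (chromosome 3, 90692632 to 90695721, minus strand) lie on one chromosome of build mm10, as annotated by GENCODE M21. Summed over the 222 members, S100a9 stood at 35341 CPM in nonTB food allergy, 34919 in nonTB control, 41859 in IgDLow food allergy, 51863 in Peyer's patch food allergy and 27206 in Peyer's patch control. S100a8 stood at 30462 CPM in nonTB food allergy, 27072 in nonTB control, 25487 in IgDLow food allergy, 36613 in Peyer's patch food allergy and 15720.2 in Peyer's patch control. Per cell, with all members, S100a8 ran from a lower quartile of 9.72 to an upper quartile of 45.5 UMIs per 1000 in nonTB food allergy. Gated monocytes had 7.37 CPM of S100a9 and 5.82 CPM of S100a8. As the rule used both genes, these values are a description.

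Receptor genes of mature neutrophils were present in all groups. Csf3r (chromosome 4, 126024550 to 126044440, plus strand) encodes the receptor of the growth factor G-CSF and stood at 1453 CPM in nonTB food allergy, 2158 in nonTB control, 1974 in IgDLow food allergy, 1768 in Peyer's patch food allergy and 1539.9 in Peyer's patch control, in 80.6% of the 222 members. Cxcr2, the receptor for Cxcl2 and related chemokines, was found in 48.6% of them, at 608 CPM. The rule asked for a UMI of Csf3r, Cxcr2 or Retnlg, so the values of Csf3r and Cxcr2 are a description. C5ar1, the receptor of complement fragment C5a, was found in 69.8%, Clec4e, a lectin that senses fungal and mycobacterial glycolipids, in 63.5%, and Cd14, the co-receptor for endotoxin, in 50.5%. Of these, monocytes had 19.0, 45.0 and 268 CPM, against 1351, 1749 and 1641 CPM in members. Of 38 listed receptors, 10 reached 500 CPM in nonTB food allergy with all members counted. Cxcr1 gave 2 UMIs in the 222 members.

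Granule genes were those of late granules. Of the 6 primary granule genes in the matrix, Mpo, Elane, Prtn3, Ctsg and Ms4a3 had no UMI in the 222 members and Prss57 had 2. Of the secondary granule genes Camp had none, Ltf 3 and Ngp 7 UMIs, whereas Lcn2 stood at 648 CPM and the haptoglobin gene Hp at 2051 CPM in 78.4% of members. Lyz2, the lysozyme gene shared with macrophages and monocytes, stood at 2611 CPM against 11055 CPM in macrophages and 4047 in monocytes. Retnlg (chromosome 16, 48872621 to 48874496, plus strand), a resistin-like secreted protein of neutrophils whose promoter is printed above, stood at 9511 CPM in nonTB food allergy, 1864 in nonTB control, 4470.4 in IgDLow food allergy, 3237 in Peyer's patch food allergy and 321 in Peyer's patch control. By single library or run, Retnlg lay between 1589 and 10930 CPM in food allergy and between 130 and 6035 CPM in control. The conditions thus overlapped, and food allergy was higher in 4 of 5 strata. As the rule used Retnlg, its values are a description. Mmp8, the neutrophil collagenase, stood at 758 CPM in nonTB food allergy, 392 in nonTB control, 271 in IgDLow food allergy, 192 in Peyer's patch food allergy and 64.2 in Peyer's patch control. Mmp9, gelatinase B, stood at 639.6 CPM in nonTB food allergy, 0 in nonTB control, 561 in IgDLow food allergy, 639 in Peyer's patch food allergy and 1315 in Peyer's patch control. The nonTB control values of Mmp8 and Mmp9 rested on 4 and 0 of 10195 UMIs. Pglyrp1, a bactericidal protein, stood at 1387 CPM and was found in 64.9% of members. Genes of cell division were near 0: Mki67 and Top2a had no UMI and Cdk1 and Birc5 had 1 each. 

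Cytokine and chemokine genes gave some of the highest levels. Il1b (chromosome 2, 129364570 to 129371139, minus strand), the interleukin 1 beta gene, was detected in 98.6% of the 222 members and stood at 17707 CPM in nonTB food allergy, 10201 in nonTB control, 31893 in IgDLow food allergy, 33609.5 in Peyer's patch food allergy and 22939 in Peyer's patch control. It stood at 447 CPM in monocytes and 2217 CPM in macrophages, and 1.32% of ILCs had a UMI. Cxcl2 (chromosome 5, 90903871 to 90905938, plus strand), which draws neutrophils through Cxcr2, was found in 83.8% of members, against 1.76% of ILCs. Ccrl2, a receptor that holds chemerin at the cell surface, was found in 89.6% of members and in 11.0% of ILCs, and Ccl6, a chemokine of myeloid cells, in 77.5% and 1.27%. Ccl3 and Ccl4, chemokines for monocytes and lymphocytes, were found in 41.9% and 38.7% of members, and in 5.22% and 13.4% of ILCs. Osm, the oncostatin M gene, was found in 44.1%, Il1rn, the antagonist of interleukin 1, in 55.0%, and Ptgs2, the inducible cyclooxygenase, in 44.6%. Tnf was found in 18.5% of members, at 413 CPM. Il12b had no UMI, Il10 had 1 and Il6 had 2.

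Genes of effector and regulatory functions completed the profile. Cyba and Rac2, parts of the oxidase that makes superoxide, stood at 1598 and 1494 CPM, and Ncf1 and Ncf4 at 533 and 620.0 CPM. Alox5ap, needed for leukotriene synthesis, was found in 80.6% of members. Cebpb, a transcription factor of granulocytes and of emergency granulopoiesis, was found in 99.5% at 9824 CPM, while Cebpa and Gfi1, factors of granulocyte precursors, had no UMI. Junb stood at 8998 CPM and Fos at 4884 CPM, both parts of the AP-1 factor that early response genes encode. Dusp1, a phosphatase that switches off MAP kinases, stood at 10218 CPM, and Nfkbia, the inhibitor of NF-kB, at 6065 CPM. Hcar2, the niacin and butyrate receptor, was found in 58.1% of members against 0.342% of ILCs, and Mcl1, which keeps neutrophils alive, in 64.4%. The interferon-induced gene Isg15 stood at 557 CPM in nonTB food allergy, 98.1 in nonTB control, 1297 in IgDLow food allergy, 3088 in Peyer's patch food allergy and 2984 in Peyer's patch control. The nonTB control value was 1 of 10195 UMIs. In the fit of all members, its difference between nonTB and Peyer's patch food allergy did not pass the test (log2 -1.22; edgeR, adjusted p = 0.995). With at most 4000 UMIs, 1 of 4 interferon response genes tested had an unadjusted p under 0.05 (edgeR) and none passed. The interferon-induced membrane protein gene Ifitm2 stood at 2165 CPM in nonTB food allergy, 3335 in nonTB control, 2651 in IgDLow food allergy, 3387 in Peyer's patch food allergy and 4427 in Peyer's patch control.

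**Figure D3:**
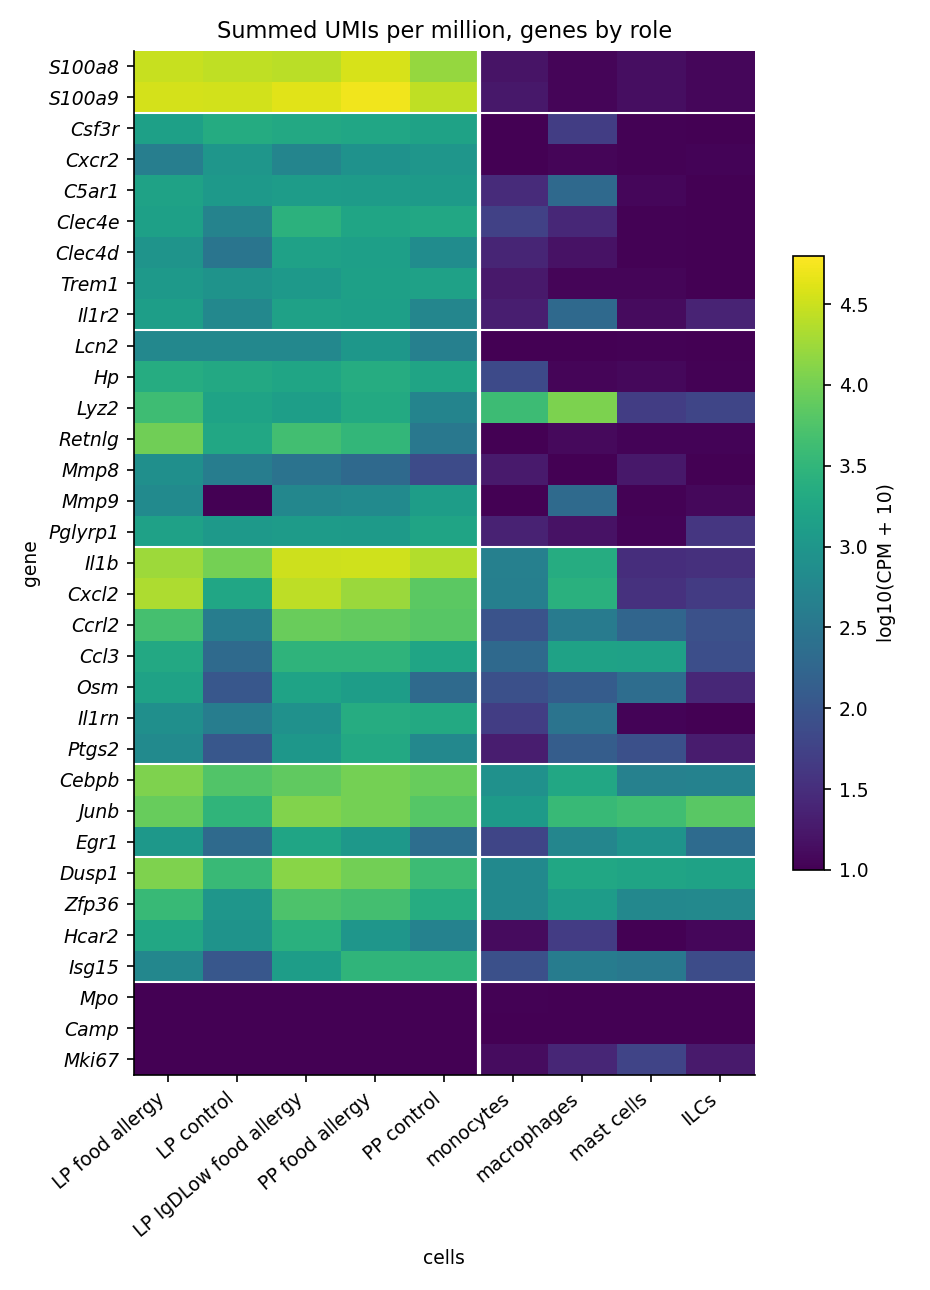
Colour gives log10 of CPM plus 10 of summed UMIs for genes grouped by role (rows) in 5 groups of neutrophils with at most 4000 UMIs (left of the white line) and in gated lamina propria monocytes, macrophages, mast cells and innate lymphoid cells (right; LP, lamina propria, PP, Peyer's patches). S100a8, S100a9 and Il1b are high in all 5 neutrophil groups, and Mpo and Camp are at 0 there; Mki67 is too.

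The members varied in Retnlg. Of the 222, 142 had a UMI of it and 80 had none, with median totals of 958 and 974 UMIs. Cells with Retnlg had more Mmp8 (623 against 94.3 CPM), Lcn2 (839 against 271), Wfdc21 (1055 against 318) and Lyz2 (3465 against 932). Cells without it had more Cxcr4, a receptor that rises as neutrophils age (1498 against 671 CPM), Ptgs2 (1332 against 725) and Isg15 (2193 against 1199). Il1b and Cxcl2 were close in both, at 22787 and 26543 CPM and at 18812 and 19444 CPM. A second split was by Ccl3, found in 93 cells: these had 7824 CPM of Ccl4 against 1249.9 in the rest and 24121 against 14803 CPM of Cxcl2. Both splits were made on the cells they describe and mix tissues and conditions, so they carry no test.

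Whether neutrophils of food allergy differed in their transcripts from those of controls was tested on UMIs summed per library, or per run and condition in Peyer's patches, with edgeR's quasi-likelihood test over all genes kept by its filter. The comparison over both tissues took the 5 strata with neutrophils of both conditions: nonTB run 6, nonTB run 7, IgDLow run 7, and Peyer's patch runs 4 and 5, with 12 sums of 243 cells. It was added after the data had been seen. The 4 lamina propria control sums held 1, 6, 2 and 2 cells with 837, 7204, 2154 and 2180 UMIs, so a single UMI there was worth 1195, 139, 464 and 459 CPM. In these strata Osm, Cxcl2 and G0s2 were higher in food allergy, 3 of 849 genes tested (0.353% of them) and none was lower. With members of at most 4000 UMIs, 12 of 370 genes passed (3.24%), 11 higher (2.97%) and 1 lower (0.27%). With DESeq2 on all members 10 passed (1.18%), 9 higher (1.06%) and 1 lower (0.118%), and in edgeR's fit of all members 45 genes (5.3%) had an unadjusted p under 0.05. In edgeR's fit of members with at most 4000 UMIs, the higher genes were Osm, Dusp1, G0s2, Cxcl2, Egr1, Ptgs2, Plaur, Zfp36, Junb and Ccrl2. Retnlg was also called higher in that fit, but its test supports nothing since the rule used this gene. The lower gene there was Wfdc17.

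Osm (chromosome 11, 4236420 to 4241026, plus strand) encodes oncostatin M, a cytokine that acts on stromal and epithelial cells. With all members, its level was 1458, 1636 and 408 CPM in the food allergy libraries 1 to 3 and 0, 139 and 0 CPM in the control libraries 1 to 3. It was 1104 against 0 CPM in the IgDLow pair, 6673 against 259.6 CPM in Peyer's patch run 4 and 584 against 45.7 CPM in run 5. All 6 food allergy sums lay above all 6 control sums, and the controls held 6 Osm UMIs in all against 351. Such a lack of overlap, given here and below for genes picked by the test on the same sums, is a description and adds no support. How many of all genes tested showed it was not counted. The mast cell protease gene Mcpt1 also had all 6 food allergy sums above all control sums. The fitted log2 difference was 4.07 with a standard error of 0.70 (edgeR, adjusted p = 0.00578), and 3.83 with members of at most 4000 UMIs (edgeR, adjusted p = 2.37e-04). Over the alternatives its edgeR or DESeq2 adjusted p ran from 2.67e-07 to 0.151. In nonTB cells alone, 177 of 157610 against 1 of 10195 UMIs gave a ratio of 11.4, with an exact 95% interval of 2.03 to 455 that covers counting error only. After each cell had been thinned to 500 UMIs, Osm was detected in 42.1% of nonTB food allergy cells against 11.1% of the 9 control cells and in 20.8% against 6.25% in Peyer's patches. The unthinned shares were 54.2%, 11.1%, 43.8% and 15.6%.

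With all members, Cxcl2, the chemokine whose promoter carries the pair of capitals above, stood at 20193, 20385 and 9099.6 CPM in the food allergy libraries 1 to 3 and 0, 2499 and 0 CPM in the control libraries 1 to 3. It stood at 19000.4 against 5963 CPM in the IgDLow pair, 8262 against 2207 CPM in Peyer's patch run 4 and 7178 against 3429.8 CPM in run 5. All 6 food allergy sums exceeded all 6 control sums. With members of at most 4000 UMIs they lay between 8262 and 26532 CPM, and the control sums between 0 and 7738 CPM. The log2 difference with all members was 2.98 with a standard error of 0.64 (edgeR, adjusted p = 0.0479). Thinned to 500 UMIs, 87.9% of nonTB food allergy cells had a Cxcl2 UMI against 22.2% of control cells, and 77.1% against 53.1% in Peyer's patches (unthinned 91.6%, 44.4%, 85.4% and 71.9%).

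With all members, G0s2 (chromosome 1, 193272161 to 193273217, minus strand) stood at 16084, 19029 and 7109.6 CPM in the food allergy libraries 1 to 3 and 0, 4164 and 2786 CPM in the control libraries 1 to 3. It stood at 13868 against 6881 CPM in the IgDLow pair, 34954 against 6102 CPM in Peyer's patch run 4 and 7211 against 3415 CPM in run 5. Again no food allergy sum overlapped a control sum. With members of at most 4000 UMIs the food allergy sums lay between 17639 and 34954 CPM, and the control sums between 0 and 8272 CPM. The log2 difference with all members was 2.27 with a standard error of 0.51 (edgeR, adjusted p = 0.0479).

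With members of at most 4000 UMIs, Dusp1 lay between 9379.8 and 13276 CPM in the 6 food allergy sums (median 11339) and between 1558 and 8363 CPM in the 6 control sums (median 4562), without overlap, and its log2 difference was 1.79 ± 0.31 (SE; edgeR, adjusted p = 0.00187). Egr1, an early response transcription factor, lay between 861 and 1907 CPM against 0 to 278 CPM, again without overlap, with a log2 difference of 2.73 ± 0.55 (edgeR, adjusted p = 0.00599). Ptgs2, Plaur (the urokinase receptor), Zfp36 (a protein that degrades cytokine mRNA), Junb and Ccrl2 overlapped between groups: their log2 differences were 2.22, 2.61, 1.72, 1.33 and 2.27, with edgeR adjusted p-values of 0.0167, 0.0167, 0.0207, 0.0309 and 0.0348. Ccrl2 was high in Peyer's patch controls, at 7605 CPM in run 5 against 7537 CPM in food allergy, while run 4 had 7626 CPM in food allergy and 3116 in control. Wfdc17, a secreted WAP-domain protein, was lower, with a log2 difference of -1.60 (edgeR, adjusted p = 0.0402).

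Il1b did not pass the test although it was among the most abundant genes. Its levels with at most 4000 UMIs per member lay between 14541 and 50207 CPM in food allergy and between 7357 and 31651 CPM in control, and overlapped. With all members the log2 difference was 0.90 ± 0.32 (SE; edgeR, adjusted p = 0.391). Nfkbia, Ccl3, Ccl4, Cd14 and Il1rn did not pass either in these 2 fits.

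**Figure D4:**
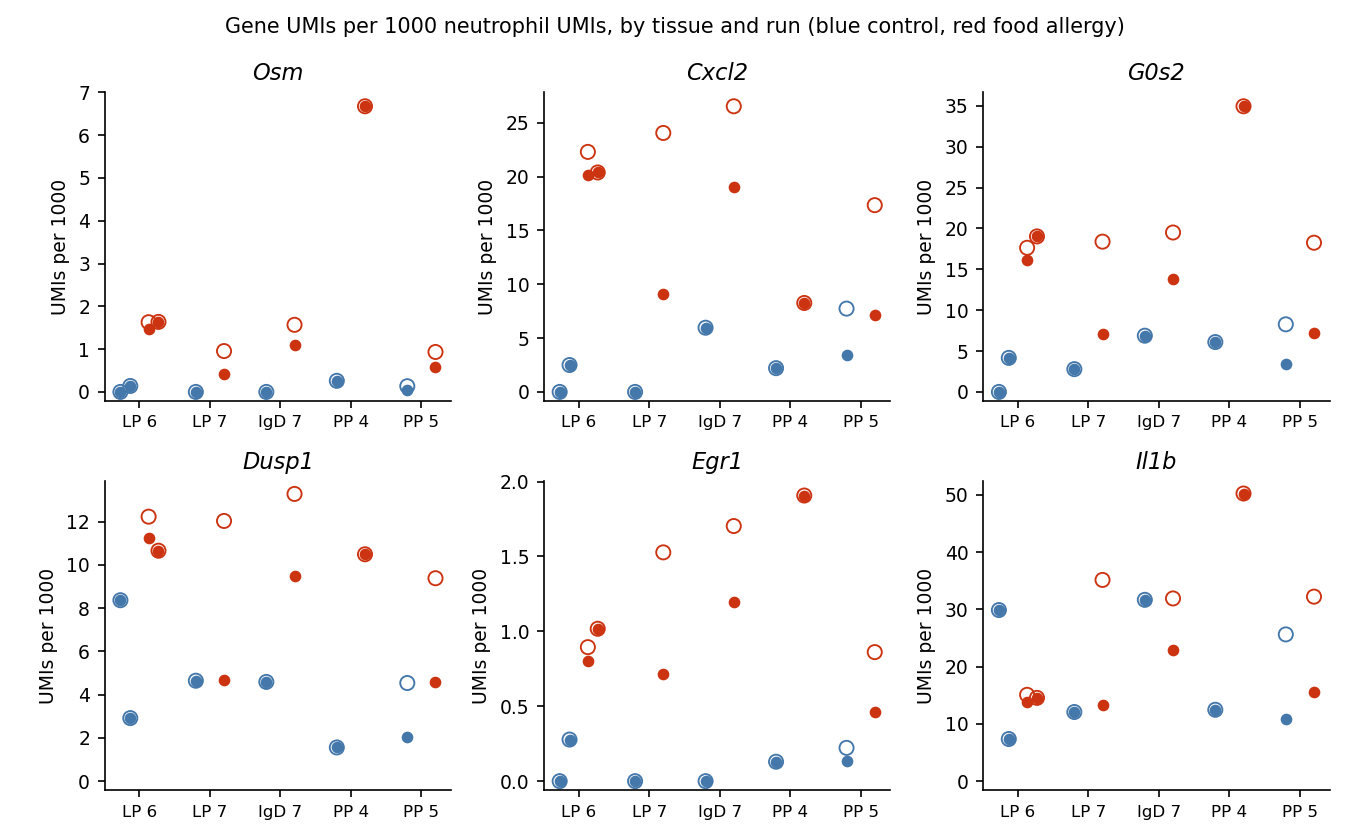
UMIs of 6 genes per 1000 summed neutrophil UMIs (y axis) in each sum of a library or run, by tissue and run on the x axis (LP, lamina propria nonTB; IgD, lamina propria IgDLow; PP, Peyer's patches; numbers are runs); blue is control and red food allergy, filled points hold all members and open rings those with at most 4000 UMIs. For Osm, Cxcl2, G0s2 and Egr1, which were picked by tests on these same sums, every red point lies above every blue point of its kind, while Il1b overlaps.

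By list, the one named cytokines and chemokines, which also holds the enzyme gene Ptgs2 and the receptor gene Ccrl2, had the highest count. Of its 23 genes, 12 were tested with all members, 2 rose (Osm and Cxcl2) and none fell, where 0.353% of all genes tested passed, with a median log2 difference of 1.27 against 0.21 over all genes tested. With at most 4000 UMIs, 4 of 10 rose (Osm, Cxcl2, Ptgs2 and Ccrl2), where 2.97% of all genes tested rose, at a median of 1.59 against 0.03. Of these 4, only Osm and Cxcl2 encode a cytokine or chemokine. In that fit 2 of 10 transcription factors tested rose (Egr1 and Junb; median 1.06) and 3 of 17 genes of activation and ageing (Dusp1, Plaur and Zfp36; median 0.94). Of the 9 genes of tertiary granules and secreted inhibitors tested, Wfdc17 fell, and Retnlg, the gene of the rule, was called higher (median 0.06). No gene passed among the 15 surface receptors tested (median 0.25), the 5 oxidase genes (median -0.08), the 4 secondary granule genes (median 0.55) or the 9 interferon response genes (median -0.66).

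Levels of genes of other cells are given beside these results. Mcpt1 and Mcpt2, mast cell proteases, gave 470 and 451 UMIs in the food allergy sums and 0 in all 6 control sums, and 200 of the Mcpt1 UMIs lay in nonTB food allergy library 1 and 258 in the IgDLow food allergy library. Neither passed the test with all members (edgeR, adjusted p = 0.161 and 0.309), while over distinct alternative fits Mcpt1 passed in 4 of 13 and Mcpt2 in 3 of 13. With at most 4000 UMIs the IgDLow library kept 2 of its Mcpt1 UMIs. The food allergy sums together then kept 210 Mcpt1 and 107 Mcpt2 UMIs, and the highest of them stood at 4587 CPM of Mcpt1. With all members, as for the other lists below, the summed level of the 8 mast cell genes listed lay between 59.8 and 6799 CPM in nonTB food allergy libraries and was 0 in control. The 9 monocyte genes summed to 1277 to 1735 CPM in nonTB food allergy libraries and 0 to 3193 CPM in control, and the 7 plasma cell genes to 6080.4 to 8278 and 5974 to 10214 CPM. The latter 2 lists overlapped between conditions. The 9 dendritic cell genes summed to 2609 to 19049.6 CPM in nonTB food allergy libraries and 0 to 4303 in control, also with overlap. Over the summed UMIs, 157610 in nonTB food allergy and 10195 in nonTB control, Cd74 stood at 5273 against 785 CPM (831 against 8 UMIs). H2-Ab1 stood at 1263 against 98.1 CPM (199 against 1 UMIs). Over all strata 3 of the 4 dendritic cell genes tested had a positive log2 difference and none passed. The median of the 4 was 1.29 against 0.21 over all genes. Of the 9 RNA quality genes (mitochondrial transcripts, Malat1 and Neat1), 9 had a positive log2 difference over all strata, at a median of 0.61 against 0.21, and 6 with at most 4000 UMIs, at 0.06 against 0.03. In the nonTB fit the positive ones numbered 9 with all members (median 0.80 against 0.45) and 3 with at most 4000 UMIs (median -0.63 against 0.06). The part of these genes in the results was not tested. In the gated mast cells themselves Osm stood at 214 CPM, Cxcl2 at 24.9 CPM and G0s2 at 5.30 CPM.

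The calls rested on few control cells and on single sums. Leaving out Peyer's patch run 5 left 0 calls (the adjusted p of Osm was then 0.0511), and leaving out run 4 gave 8. Without nonTB control library 1 there were 8 calls, without the IgDLow pair 5, and without nonTB food allergy library 1, without food allergy library 2, or without run 7 of the nonTB sort (its control and food allergy libraries 3) 1 each, which was Osm. Osm passed in 17 of 19 distinct alternative fits, Cxcl2 in 13 and G0s2 in 12, always with food allergy higher.

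In the 6 nonTB libraries alone, with 107 food allergy and 9 control members, edgeR called 0 of 564 genes (0.0%), while 39 (6.91%) had an unadjusted p under 0.05. DESeq2 called 6 (1.06%), 5 higher (0.887%) and 1 lower (0.177%). Cxcl2 had a log2 difference of 4.41 ± 1.07 (SE; edgeR, adjusted p = 0.676). By counting alone, its 2540 of 157610 UMIs in food allergy and 18 of 10195 in control gave a ratio of 9.13 with an exact 95% interval of 5.76 to 15.4. The ratio was 8.83 for Ccrl2 (3.43 to 32.5), 3.87 for G0s2 (2.79 to 5.54), 1.36 for Il1b (1.11 to 1.67) and 1.06 for Srgn, the core protein of granule proteoglycan (0.777 to 1.47), intervals that hold no spread between libraries. With at most 4000 UMIs, Cxcl2 and Ccrl2 passed, 2 of 263 genes (0.76%), at log2 differences of 4.22 and 3.90 (edgeR, adjusted p = 0.0462 and 0.0462). With replicate number as a block, Cxcl2 alone passed (1 call). Without control library 2, which held 6 of the 9 control members, 119 genes passed, 118 of them higher, and without control library 3 there were 4 calls. The median UMIs per member were 921, 776 and 907 in food allergy libraries 1 to 3 and 837, 867 and 1077 in control, a mean difference of -59 (exact permutation p = 0.5).

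The response of the lamina propria was not shown to differ from that of Peyer's patches. A test of the difference between both condition effects called 0 of 849 genes with edgeR (0.0%; lowest adjusted p = 0.465), with 54 genes (6.36%) at an unadjusted p under 0.05.

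Between tissues, within food allergy, no gene of the neutrophil lists passed the test with all members or with at most 4000 UMIs. The comparison set 107 members of 3 nonTB libraries against 48 of Peyer's patch runs 2 to 5. Tissue, sort and run moved together here and cannot be told apart. The 9 genes listed for RNA quality had positive log2 differences throughout, at a median of 1.51 against 0.34 over all genes tested, and their part in the result was not tested. Of 675 genes, 24 (3.56%) had an unadjusted p under 0.05 and 1 passed (0.148%): Jchain, which joins secreted IgA and is made by plasma cells, was higher in the lamina propria, with a log2 difference of 4.85 ± 1.03 (SE; edgeR, adjusted p = 0.00162). Its levels were 493.01, 838 and 731 CPM in the nonTB food allergy libraries, and 0 and 25.01 CPM in Peyer's patch runs 4 and 5, with 2 and 44 members. Runs 2 and 3, also in the fit, held 1 member each, and their levels are not given here. Without run 2 there were 0 calls. With upper-quartile scaling factors 3 genes passed, 1 higher and 2 lower, and with DESeq2 0 did, with 12 at an unadjusted p under 0.05. With at most 4000 UMIs, Igkc and Igha passed, 2 of 265 genes (0.755%). Immunoglobulin RNA was also in cells that do not make it: thinned to 500 UMIs, Igkc was detected in 82.2% of lamina propria food allergy members and in 80.8% of 1000 lamina propria ILCs, against 25% of Peyer's patch food allergy members (unthinned 98.1%, 97.5% and 58.3%).

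Some list genes passed under alternatives: Bcl2a1a was lower in the lamina propria with upper-quartile factors, with at least 20 S100 UMIs, with the IgDLow library added and without Peyer's patch run 4 (4 of 15 distinct fits; edgeR and DESeq2 adjusted p from 0.00249 to 0.981), and Cxcr4 was lower with no UMI of other types and without run 5 (2 of 17; 0.0209 to 0.998). Of the genes of neutrophils in that comparison, Cxcl2 had a log2 difference, lamina propria minus Peyer's patches, of 1.20, Retnlg of 0.79, Il1b of -0.50, Cxcr4 of -1.67 and Bcl2a1a, a survival gene with near-identical copies that may share reads, of -2.66 (edgeR, adjusted p = 0.995, 0.995, 0.995, 0.995 and 0.0827). The median over the 11 genes tested of the list named cytokines and chemokines was -0.32 and over the 9 genes of tertiary granules and secreted inhibitors 0.82, against 0.34 over all genes tested. Leaving out Peyer's patch run 5, which held 44 of the 48 Peyer's patch cells, gave 41 calls from the 4 cells left, and without nonTB food allergy library 1 or Peyer's patch run 2 there were 0, without food allergy library 3 there were 3 and without run 4 there were 2.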

How the data were processed

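Single-cell RNA was counted by the submitters. The deposited matrix holds raw UMI counts of 19221 genes in 58067 cells, each with at least 501 UMIs, so the authors' cell filter came first. The submitters' processing notes name bcl2fastq, Cell Ranger, Bowtie2, RSEM and the build mm10, without versions or roles. The deposited gene and cell name files carry no measurement, and the RSEM table of bulk samples was not used here. Of 28 single-cell libraries, 27 had cells; Peyer's patch food allergy replicate 1 was not analysed here. The number of unused per-sample columns was 0.

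The members, gene lists and gates of other cells were chosen with earlier results of these data known. Monocytes, macrophages, mast cells and innate lymphoid cells were gated by UMIs of their own marker genes. No doublet caller was run; cells above 4000 UMIs were left out in an alternative instead. Named genes were the 20 of highest ratio to other cells, list genes with at least 500 CPM in nonTB food allergy members or at or near 0, genes past an adjusted p of 0.05 (up to 15 a direction), and list genes that an alternative moved across it.

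Summed counts were tested with edgeR 4.0.16 (filterByExpr, TMM factors, glmQLFit and glmQLFTest, Benjamini-Hochberg adjustment over all genes tested) in R 4.3.3, and with DESeq2 1.42.0 as an alternative. Fits between conditions had run or stratum as a term, and the fit between tissues had none. The fits were tested on simulated data. Shares were compared with exact two-sided permutation tests (scipy 1.17.1), and their 95% intervals are exact Clopper-Pearson. Promoters are from RefSeq and positions from GENCODE M21. Median UMIs per cell ran from 1829 to 3975 over the libraries, which bounds the precision of single-cell detection.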

Additional observations from a re-analysis of the deposited data

Results flagged for a closer look

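In Peyer's patches the highest control library, of run 5, held 0.694% neutrophils, and its gap to the next library (0.357%) was 0.485 of the range of the 10 control libraries, above Dixon's critical value of 0.466. The highest food allergy library, also of run 5, held 1.13%, and its gap to the next (0.516%) was 0.542 of the range of 9 libraries, above 0.493. Such a test flags some groups by chance, and these 2 groups also mix 5 runs. The IgDLow food allergy library, which the test of the neutrophil share did not use, held 1.41% neutrophils against 0.0770% in the IgDLow control library.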

How the results depend on the processing

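The lamina propria share kept its direction under every alternative run, from 1.08 to 1.34 percentage points with each library left out, and was 0.496 over cells with at least 1000 UMIs, and with the replicate block it was 1.20 (exact permutation p = 0.25, the smallest of its 8 arrangements). The Peyer's patch share difference ran from -0.0220 to 0.0879 with each run left out, reversed without run 5, and the median UMIs per cell from -104 to 16, reversed without control library 3. Genes called in the lamina propria numbered 6 with DESeq2, 1 with upper-quartile factors, 1 without the genes of the rule, 2 with at most 4000 UMIs, 1 with the replicate block, and 0 to 119 with each library left out. Genes called between tissues numbered 0 with DESeq2, 3 with upper-quartile factors, 2 with no filter, 2 with at least 3 or at least 10 cells a sum, 4 with at least 20 S100 UMIs, 3 with no UMI of other types, 2 with at most 4000 UMIs, 4 with the IgDLow library, and 0 to 41 with each sum left out. Genes called over all strata numbered 10 with DESeq2, 9 with upper-quartile factors, 0 with no filter, 8 with at least 3 cells, 1 with at least 5 S100 UMIs, 10 with no UMI of other types, 12 with at most 4000 UMIs, 7 with libraries as units, and 0 to 8 with each left out. The filter changed the number of genes tested with the setting; beyond that the cause was not tested. The log2 difference of Il1b turned to -0.21 in the lamina propria with upper-quartile factors and to 0.0493 between tissues with no filter. Upper-quartile factors moved the median of all genes in the lamina propria from 0.45 to -0.12. At least 10 cells a sum could not be fitted in the lamina propria or over all strata. The same replicate numbers mark no stated shared animal. Few control cells, 9 in the nonTB libraries, limit the depth.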
